A study of Mus musculus with 11 samples.

Results

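Whether the genes for protein folding in the endoplasmic reticulum (ER) differ between liver endothelial cells of mice with and without a gut microbiota was examined here for 37 genes out of the 29307 in the count table. The 37 genes, referred to as ER folding and stress genes, were taken by their symbols: 3 thiol oxidases, 9 members of the protein disulfide isomerase family, 12 chaperones and co-factors, 7 stress sensors and transcription factors, and 6 genes of ER-associated degradation. All 37 were listed and all 37 were among the 12905 genes with enough counts for testing. The sulfhydryl oxidase *Qsox1* was set against the other 36.

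The mice were male, wild type C57BL/6J and 10 to 12 weeks old. 5 were germ-free (GF), bred in sterile isolators, and 6 were conventionally raised (CONV-R), kept under specific-pathogen-free conditions, from the same colonies and on the same autoclaved chow. Sinusoidal endothelial cells (ECs), which line the liver capillaries, were enriched from each liver with CD146 beads and then sorted for CD31, CD105 and CD146, and the RNA was amplified as cDNA before sequencing, with 1 library per mouse. GF livers gave fewer sorted cells and less RNA, so that the housing condition and the cell yield cannot be told apart, although the amount of RNA put into the amplification was the same. The labels number the CONV-R mice 1 to 6 and the GF mice 1, 2, 4, 5 and 6.

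Proteins that enter the ER are bound by chaperones, receive disulfide bonds from protein disulfide isomerases that are re-oxidised by thiol oxidases, and are pulled out for degradation when they fail to fold. When unfolded proteins accumulate, the membrane sensors IRE1 (*Ern1*), PERK (*Eif2ak3*) and ATF6 start the unfolded protein response: IRE1 splices the *Xbp1* transcript, PERK slows translation and favours that of ATF4, and ATF6 is cut into a transcription factor. ATF6 acts on chaperone genes through the ER stress response element (ERSE), and sinusoidal ECs carry a large load of secreted and surface proteins such as scavenger receptors and coagulation factor VIII.

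The libraries held 7242717 to 16164588 counts in GF mice and 7922855 to 14669352 in CONV-R mice. CONV-R mouse 3 stood apart from its group in the chi-square per gene between its counts and those of each other CONV-R library. This was 39.6 to 50.1, against 8.81 to 25.8 for the other CONV-R pairs, while pairs of GF libraries ran from 18.8 to 46.5. The mouse was the lowest of all 11 libraries in 11 of the 37 genes, which did not single it out. The mean deviation of the 37 genes on the log2 scale was lower in CONV-R mouse 4 (-0.49) than in CONV-R mouse 3 (-0.34). Levels are given as CPM, counts scaled to a common library size after TMM normalization, and Log2FC is the log2 fold change of GF against CONV-R mice. Genes were compared by the quasi-likelihood test of edgeR, and adjusted p values are those of Benjamini and Hochberg over the 12905 genes, with a threshold of 0.05. The defining markers of sinusoidal ECs, among them *Stab2*, *Lyve1* and the sorting markers *Pecam1*, *Eng* and *Mcam*, were high in every library, with a summed level over 10 genes of 25525 to 34886 CPM in GF and 26294 to 32270 CPM in CONV-R mice, and 0 of the 10 passed, by edgeR and by DESeq2, while 5 had an unadjusted p under 0.05 (edgeR), all 5 with a positive Log2FC (*Stab1*, *Lyve1*, *Flt4*, *Pecam1* and *Mcam*). Among all tested genes 23% had an unadjusted p under 0.05, and 12.5% had one with a positive Log2FC. By DESeq2, 1527 of 15540 genes passed, 929 of them higher. The median Log2FC of the 10 endothelial markers was 0.30. 10 Kupffer cell markers together reached 197 to 931 CPM in GF and 86.0 to 222 CPM in CONV-R mice. All 10 had a positive Log2FC (49.1% of all tested genes had) and 7 passed, all higher (4.8% of all tested genes were). None of these 10 was at 0 in a GF library, and their part in the results below was not tested. 9 plasma and B cell genes, a lineage rich in ER, together reached 6.47 to 16.95 CPM in GF and 13.7 to 36.1 CPM in CONV-R mice, with the plasma cell genes *Jchain*, *Mzb1* and *Tnfrsf17* at no more than 0.579, 0.132 and 0 CPM in GF and 1.94, 0.155 and 0.233 CPM in CONV-R mice; 0 of the 6 tested passed by edgeR (3 with an unadjusted p under 0.05) and 1 by DESeq2. Hepatocyte markers reached 40.4 to 105 CPM in GF and 32.9 to 75.8 CPM in CONV-R mice, and stellate cell markers 68.0 to 91.4 CPM and 57.4 to 96.0 CPM.

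6 of the 37 genes passed the threshold, and all 6 were higher in GF mice: *Qsox1*, the isomerases *P4hb* and *Pdia5*, the prolyl isomerase *Ppib*, the sensor *Eif2ak3* and the transcription factor *Xbp1*. Among all tested genes 4.8% were higher and 2.67% lower, 7.48% in either direction, against 6 of 37 higher and 0 of 37 lower here. In these bulk samples a change in the number of cells of a type and a change of RNA per cell cannot be told apart. An unadjusted p under 0.05 was found for 12 of the 37, all 12 with a positive Log2FC, and for 2968 of all tested genes (23%), of which 1612 were positive (12.5% of all). A positive Log2FC was found for 32 of the 37 genes, with a median of 0.33, whereas 49.1% of all tested genes were positive and their median was -0.0061. Without *Qsox1* the median was 0.33 over 36 genes, beside the 0.30 of the endothelial markers, and the part of the latter in it was not tested. Only *Qsox1* changed by more than 2-fold. The groups did not overlap in 4 genes, against 5.59% of all tested genes: *Qsox1*, *Pdia5* and *Eif2ak3* were higher in every GF mouse than in any CONV-R mouse, and *Qsox2* was lower in every GF mouse.

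**Figure D1:**
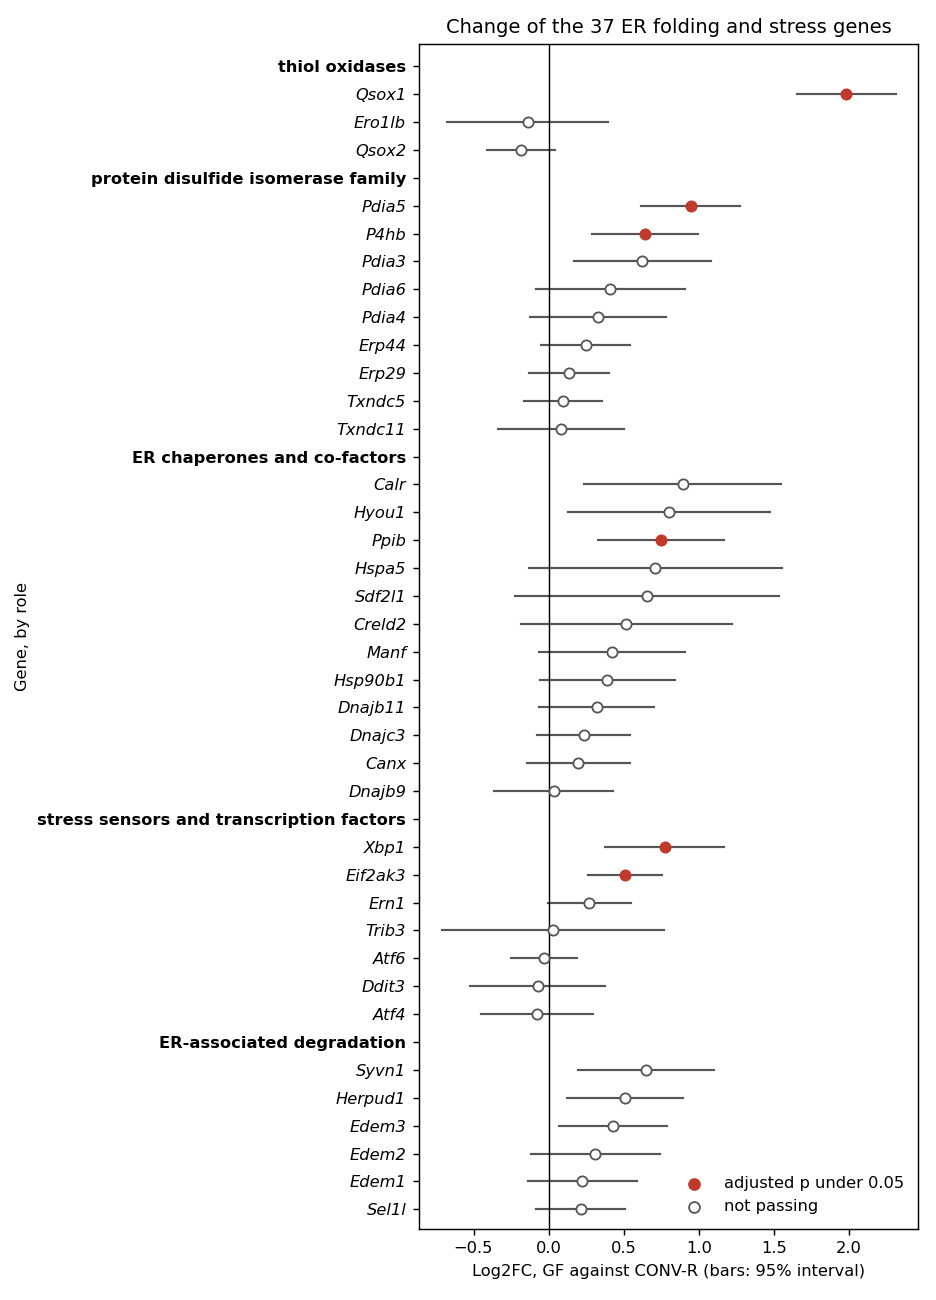
Log2FC of GF against CONV-R mice (x axis) for each of the 37 genes (y axis, by role), with bars for the 95% interval. Filled points passed the threshold. Qsox1 at 1.98 stands apart from the other 36 genes, which lie between -0.18 and 0.95.

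The number of genes that passed depended on single libraries. It was 10 without GF mouse 5, adding *Pdia3*, *Calr*, *Edem3* and *Syvn1*, and 4 without any one of CONV-R mice 4, 5 and 6 or GF mice 4 and 6, when *P4hb* and *Ppib* fell out. The count over all genes moved likewise, from 965 to 1260 without GF mouse 5 and to between 622 and 851 in the fits that gave 4. GF mouse 6 is the library with the highest Kupffer cell markers. Without CONV-R mouse 3 the 6 genes and *Herpud1* passed, *Qsox1* had a Log2FC of 1.91 and the median of the 37 genes was 0.32.

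*Qsox1* encodes a sulfhydryl oxidase of the late secretory pathway that forms disulfide bonds directly with oxygen and is partly secreted. It lies on chr1:155776029-155812889 (GRCm38, minus strand). Its level was 74.1, 86.1, 55.3, 81.4 and 57.8 CPM in GF mice 1, 2, 4, 5 and 6, and 13.01 at the lowest, 18.5 at the median and 21.1 CPM at the highest in the 6 CONV-R mice. Every GF mouse was thus above every CONV-R mouse, with a gap wider than the spread of either group. The Log2FC of 1.98 has a 95% interval of 1.65 to 2.31 (adjusted p = 1.32e-06, edgeR), a rise of 3.95-fold with bounds of 3.14 and 4.97. On the deposited log2 values its Log2FC was 1.63, below that interval. *Qsox1* ranked 4 by p among all tested genes but 122 by the size of Log2FC among those that were higher. The gene is among those that the study itself named from these same libraries, so its change is not independent evidence. The summed Kupffer cell markers of the same GF mice, in the same sequence, were 288, 357, 197, 212 and 931 CPM, and their part in this difference was not tested.

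*Qsox2*, the paralog with the same enzyme activity, did not pass (Log2FC -0.18, 95% interval -0.41 to 0.04, adjusted p = 0.320, edgeR). It stood at 41.8, 36.5, 39.6, 40.3 and 40.6 CPM in GF mice 1, 2, 4, 5 and 6, and between 42.0 and 49.2 CPM in CONV-R mice, median 44.8. The 2 groups were separate by a narrow margin, and the pooled SD within groups was 0.077 on the log2 scale, smaller than in all but 0.264% of the tested genes. *Ero1lb*, the ER oxidase that recharges the disulfide isomerases, had a Log2FC of -0.14 (95% interval -0.68 to 0.40), with 7.87 to 26.8 CPM in GF and 13.02 to 22.7 CPM in CONV-R mice. Of the thiol oxidases, only *Qsox1* passed.

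The ratio of *Qsox1* to *Qsox2* within a library does not depend on library scaling. It was 1.77, 2.35, 1.39, 2.02 and 1.42 in GF mice 1, 2, 4, 5 and 6, and 0.292 to 0.487 in the CONV-R mice. *Qsox1* therefore had the higher CPM of the pair in every GF mouse and the lower in every CONV-R mouse. The log2 ratio was 0.81 ± 0.32 (SD, n = 5) in GF and -1.34 ± 0.29 (SD, n = 6) in CONV-R mice, a difference of 2.15 (two-sided exact permutation test over 462 divisions, p = 0.00216, the smallest it can give). *Qsox1* was higher and *Qsox2* lower in every GF mouse, so the ratio had to divide the groups. The p was thus fixed by the values of the 2 genes and adds no evidence to them. Set against each of the other 36 genes in turn, the log2 ratio of *Qsox1* was higher in GF mice by 1.03 to 2.22 on average, and in 30 of the 36 it did not overlap between the groups. The same held for 88.3% of the ratios of *Qsox1* to all other tested genes, so that the count says nothing particular about the 36. The 6 partners with an overlap were *Pdia3*, *Hspa5*, *Hyou1*, *Calr*, *Sdf2l1* and *Creld2*.

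**Figure D2:**
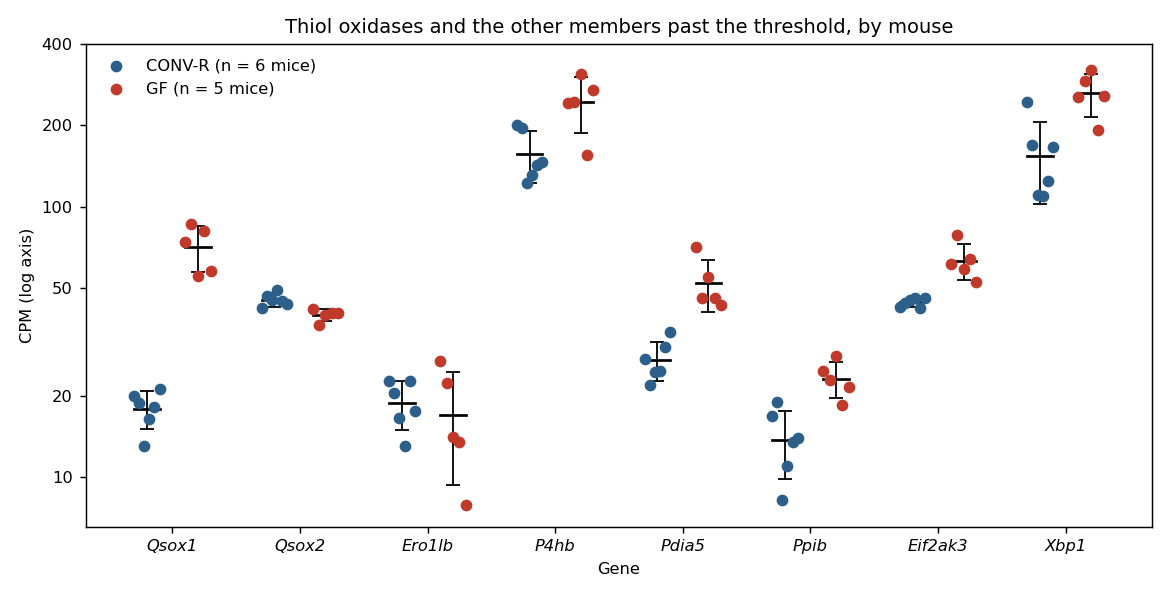
CPM on a log axis (y) of the 3 thiol oxidases and the other 5 genes that passed the threshold (x), 1 point per mouse, with the mean and SD of each group. The GF points of Qsox1, Pdia5 and Eif2ak3 lie above all CONV-R points, while Qsox2 lies in a narrow band in both groups.

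In the protein disulfide isomerase family 2 of 9 genes passed, both higher (4.8% of all tested genes were), and all 9 had a positive Log2FC (49.1% of all). *Pdia5*, an isomerase of the ER lumen, was at 71.0, 46.0, 54.8, 46.0 and 43.1 CPM in GF mice 1, 2, 4, 5 and 6. Its range in CONV-R mice was 21.9 to 34.5 CPM, around a median of 25.99. The groups were separate, and the Log2FC was 0.95 (SE 0.16, adjusted p = 0.0014, edgeR). *P4hb*, the founding disulfide isomerase and a subunit of collagen prolyl hydroxylase, was at 243, 244, 309, 155 and 271 CPM in GF mice and at 122 to 201 CPM, median 144, in CONV-R mice. GF mouse 5 lay within the CONV-R range, and the other GF mice above it (Log2FC 0.64, SE 0.17, adjusted p = 0.0261). *P4hb* no longer passed without any one of CONV-R mice 4, 5 and 6 or GF mice 4 and 6, with an adjusted p of up to 0.0702.

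The other 7 isomerases did not pass. *Pdia3*, which works on glycoproteins together with calnexin and calreticulin, had a Log2FC of 0.62 (95% interval 0.17 to 1.08, adjusted p = 0.0894), with 826 CPM in GF mouse 4 and 296 to 473 CPM in the other GF mice against 235 to 450 CPM in CONV-R mice. Without GF mouse 4 its Log2FC was 0.34. *Pdia6* and *Pdia4*, isomerases bound to BiP complexes, had a Log2FC of 0.41 and 0.33 with intervals that include 0. *Erp44*, which retains client proteins and oxidases in the early secretory pathway, had a Log2FC of 0.25, and *Erp29*, a redox-inactive relative, 0.14. *Txndc5*, an isomerase abundant in endothelium, had a Log2FC of 0.10, and *Txndc11*, a membrane-bound thioredoxin protein, of 0.08.

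Among the 12 chaperones and co-factors only *Ppib* (cyclophilin B), a prolyl isomerase of the ER lumen, passed (1 of 12, beside 4.8% of all tested genes that were higher), and all 12 had a positive Log2FC (49.1% of all) with a median of 0.47. *Ppib* stood at 24.8, 22.9, 27.9, 18.5 and 21.4 CPM in GF mice and at 8.23 to 19.0 CPM, median 13.7, in CONV-R mice. Only GF mouse 5 fell within the CONV-R range (Log2FC 0.75, SE 0.20, adjusted p = 0.0288). The call was kept in 4 of the 11 fits that left out 1 mouse, and the adjusted p reached 0.0726 without CONV-R mouse 4. It was lost without CONV-R mice 4, 5 and 6 and without GF mice 1, 2, 4 and 6. In the annotation 825 bases of *Ppib* exons are shared with *Snx22* on the other strand, and the strand setting of the counting is not given in the sources used here. Exons of 10 of the 37 genes share 18 to 2390 bases with another listed gene, the most in *Erp29* (2390), *Ppib*, *Hsp90b1* (499), *Manf* (326) and *Txndc5* (224), partly on the same strand in *Hsp90b1* and *Manf*, so that reads of these stretches cannot be assigned with certainty.

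*Hspa5* encodes BiP, the central ER chaperone, which also keeps the stress sensors inactive. It was at 3388, 2864, 2011, 640 and 1350 CPM in GF mice 1, 2, 4, 5 and 6, and at 522 to 2596 CPM with a median of 1103 in CONV-R mice. The groups overlapped widely: GF mouse 5 was near the bottom of the CONV-R range, and only GF mice 1 and 2 were above it. With a Log2FC of 0.71 and a 95% interval of -0.13 to 1.55 (adjusted p = 0.302), these mice leave a range from a small fall to a rise of 2.93-fold. *Hspa5* varied 5.29-fold among GF and 4.97-fold among CONV-R mice, and its SD within groups of 0.93 on the log2 scale was larger than in 94.4% of all tested genes.

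*Calr* and *Hyou1* had the highest Log2FC of the chaperones. *Calr*, the lectin chaperone calreticulin, was at 476, 398, 451, 161 and 259 CPM in GF mice and 88.1 to 329 CPM in CONV-R mice (Log2FC 0.89, adjusted p = 0.0913). *Hyou1*, a nucleotide exchange factor for BiP, was at 129, 124, 132, 59.0 and 62.8 CPM in GF mice and 30.9 to 101 CPM in CONV-R mice (Log2FC 0.80, adjusted p = 0.141). In both, GF mice 1, 2 and 4 were above every CONV-R mouse and GF mice 5 and 6 were not. The BiP co-factors *Sdf2l1* and *Creld2* and the secreted factor *Manf* had a Log2FC of 0.66, 0.52 and 0.42. *Hsp90b1* (GRP94), which folds Toll-like receptors and integrins, had a Log2FC of 0.39. The J-domain co-chaperones *Dnajb11*, *Dnajc3* and *Dnajb9* had 0.32, 0.23 and 0.03, and the membrane lectin *Canx* 0.20.

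Many chaperones were highest in the same libraries. In *Hspa5* the 5 highest libraries were CONV-R mice 1 and 2 and GF mice 1, 2 and 4. The same 5 libraries, in varying sequence, were highest in 7 of the other 11 chaperones and in 9 of the other 36 genes, namely *Hsp90b1*, *Hyou1*, *Calr*, *Dnajc3*, *Sdf2l1*, *Creld2*, *Manf*, *Pdia4* and *Pdia6*, and in 113 of the other 12904 tested genes (0.876%). Of these 9 and *Hspa5*, 0 passed the threshold between the groups by edgeR or DESeq2, and 2 had an unadjusted p under 0.05. Among all tested genes 4.8% were higher and 23% had an unadjusted p under 0.05, so that these counts are near the overall shares. *Calr* and *Hyou1* passed when no filter on low counts was used. Of the 6 genes that passed, none had these 5 libraries highest, and in *Qsox1*, *Pdia5* and *Eif2ak3* the 5 highest were the 5 GF libraries. This contrast follows largely from the threshold, since the 5 libraries of *Hspa5* include CONV-R mice 1 and 2 and leave out GF mice 5 and 6. The summed Kupffer cell markers of these 5 libraries were 222, 86.7, 288, 357 and 197 CPM, against 86.0 to 196 CPM in the other CONV-R and 212 and 931 CPM in the other GF mice, and their part in this was not tested. The endothelial markers, as the mean deviation of the 10 genes on the log2 scale, were above their average in these 5 libraries (0.04, 0.07, 0.17, 0.07 and 0.39) and in GF mouse 6 (0.16), and below it in CONV-R mice 3, 4, 5 and 6 and GF mouse 5 (-0.14 to -0.24). The 3 libraries with the fewest counts, CONV-R mouse 3 and GF mice 5 and 6, were outside the 5. The part of these values in the pattern was not tested.

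**Figure D3:**
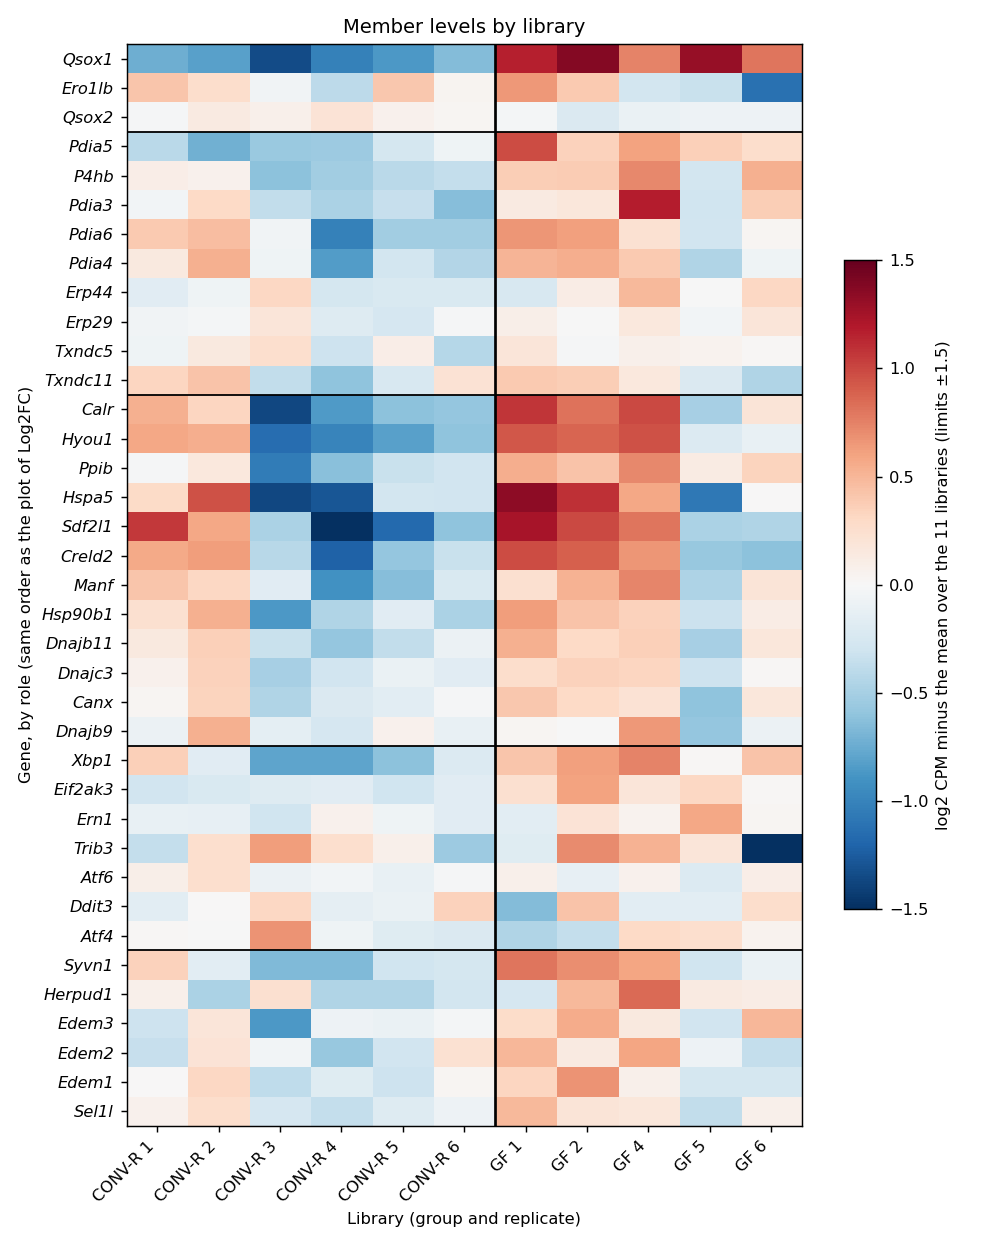
log2 CPM of each gene (rows, by role) in each of the 11 libraries (columns) minus the mean of that gene over the libraries, with colour limits at ±1.5. CONV-R mice 1 and 2 and GF mice 1, 2 and 4 are red over most chaperones, while Qsox1 in the first row divides by group.

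The sequence before the genes was examined as a description planned beforehand. Its comparison with the highest libraries shared by *Hspa5* and these 9 genes was not part of that plan. RefSeq sequences (GRCm38.p6) of 250 bases before to 50 bases after the transcription start were matched for 32 of the 37 genes. The ERSE, CCAAT and CCACG separated by 9 bases, read on both strands, was found in 8 of the 32 genes (25%) against 0.137% of 27025 genes with a promoter sequence: *Pdia6*, *Hspa5*, *Hsp90b1*, *Calr*, *Canx*, *Dnajc3*, *Creld2* and *Syvn1*. ATF6 acts on chaperone genes through this element, and the list was chosen to hold such genes. The higher share therefore follows in part from that choice and is not a test. Apart from *Hspa5*, which sets the pattern, 5 of 7 genes with the element had the same 5 highest libraries, against 2 of the 24 genes without it (*Pdia4* and *Sdf2l1*). Only these exact letters at this exact distance were searched. Variant forms of the element were not, so that the 24 genes may include some with such a form. *Hyou1* and *Manf* had no sequence in the table. 0 of the 8 genes with an ERSE passed the threshold by edgeR, 2 had an unadjusted p under 0.05 and 1 passed by DESeq2 (*Syvn1*), and all 6 genes that passed were among the 24 without one. Among all tested genes 4.8% were higher and 23% had an unadjusted p under 0.05, so that 0 and 2 of 8 are near the overall shares. The median Log2FC was 0.46 in the 8 genes with an ERSE and 0.32 in the 24. The sites of the element are shown with 20 bases on either side in the direction of the element, which is in capitals; *Hsp90b1* held 2 of them.
Pdia6 chr12:17266471-17266529 (+): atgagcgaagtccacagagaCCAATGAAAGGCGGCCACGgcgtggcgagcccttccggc
Hsp90b1 chr10:86705618-86705676 (-): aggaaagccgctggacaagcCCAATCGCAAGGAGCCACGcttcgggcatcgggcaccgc
Hsp90b1 chr10:86705513-86705571 (+): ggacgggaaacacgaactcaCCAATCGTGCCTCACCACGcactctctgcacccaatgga
Calr chr8:84847055-84847113 (+): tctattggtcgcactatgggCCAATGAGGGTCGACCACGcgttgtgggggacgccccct
Canx chr11:50325780-50325838 (-): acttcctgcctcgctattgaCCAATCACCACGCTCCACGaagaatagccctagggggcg
Dnajc3 chr14:118937807-118937865 (+): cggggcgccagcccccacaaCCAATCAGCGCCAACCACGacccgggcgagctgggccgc
Creld2 chr15:88819500-88819558 (-): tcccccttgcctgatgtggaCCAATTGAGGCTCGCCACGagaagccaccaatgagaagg
Syvn1 chr19:6046512-6046570 (+): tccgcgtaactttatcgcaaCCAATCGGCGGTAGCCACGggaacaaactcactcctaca

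The whole promoters of *Hspa5* and *Qsox1* are shown because the 2 genes stand for the 2 patterns, a level that varied between mice of both groups and one that divided by group. In *Hspa5* the capitals mark an unfolded protein response element (UPRE, TGACGTGA) at 157 bases before the start and the ERSE at 65 bases. The *Qsox1* window held none of the motifs searched and has no capitals.
Hspa5 chr2:34771840-34772139 (+): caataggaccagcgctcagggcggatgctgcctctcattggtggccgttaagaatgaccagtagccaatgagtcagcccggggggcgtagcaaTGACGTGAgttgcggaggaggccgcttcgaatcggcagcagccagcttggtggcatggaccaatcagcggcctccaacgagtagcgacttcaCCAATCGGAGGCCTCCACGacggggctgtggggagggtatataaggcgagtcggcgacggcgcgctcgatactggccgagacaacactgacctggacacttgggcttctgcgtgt
Qsox1 chr1:155812850-155813149 (-): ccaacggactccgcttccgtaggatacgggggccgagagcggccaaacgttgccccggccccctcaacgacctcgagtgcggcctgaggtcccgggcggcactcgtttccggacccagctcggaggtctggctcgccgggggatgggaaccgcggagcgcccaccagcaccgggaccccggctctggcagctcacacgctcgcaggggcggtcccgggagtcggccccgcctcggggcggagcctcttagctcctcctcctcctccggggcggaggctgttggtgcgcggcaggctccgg

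The UPRE, searched as TGACGTGG and TGACGTGA, was found in 3 of the 32 genes (*Txndc5*, *Txndc11* and *Hspa5*; 9.38% against 1.22% of all genes). The element bound by ATF4 with C/EBP factors, searched as TGATGNAAN, was found in *Txndc5*, *Trib3* and *Herpud1* (9.38% against 4.50%). No matches of different motifs overlapped. A match is a run of letters in this window and not a measured binding site.

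Of the stress sensors and transcription factors 2 of 7 passed, both higher, beside the 4.8% of all tested genes. *Eif2ak3*, which encodes PERK, was at 61.3, 78.4, 58.7, 64.1 and 52.5 CPM in GF mice 1, 2, 4, 5 and 6. In CONV-R mice it lay between 42.0 and 46.0 CPM, with a median of 44.7. Every GF mouse was above this narrow range (Log2FC 0.51, SE 0.12, adjusted p = 0.0133, edgeR). *Xbp1* was at 254, 292, 320, 192 and 256 CPM in GF mice and at 110 to 244 CPM with a median of 145 in CONV-R mice. The highest CONV-R mouse, mouse 1, was above GF mouse 5 only (Log2FC 0.77, SE 0.19, adjusted p = 0.0192). Counts per gene do not separate the spliced from the unspliced *Xbp1* transcript. Both genes passed in all 11 fits that left out 1 mouse, with an adjusted p of up to 0.0432 for *Eif2ak3* and 0.0497 for *Xbp1*.

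The other 5 did not pass. *Ern1* had a Log2FC of 0.27 (95% interval -0.0060 to 0.55), with 91.6 CPM in GF mouse 5 and 55.0 to 70.7 CPM in the other GF mice against 50.1 to 64.2 CPM in CONV-R mice. *Atf6* was at 138 to 170 CPM in GF and 146 to 189 CPM in CONV-R mice (Log2FC -0.03, 95% interval -0.25 to 0.19). *Atf4*, the transcription factor translated under PERK, had a Log2FC of -0.08 (95% interval -0.45 to 0.29). Its target *Ddit3* (CHOP), a factor of the late stress response, had -0.07, with 6.50 to 13.7 CPM in GF and 9.15 to 12.96 CPM in CONV-R mice. The pseudokinase *Trib3*, another target, was the least expressed gene per length, at 1.36 to 6.47 CPM in GF and 2.72 to 6.14 CPM in CONV-R mice, and its interval of -0.71 to 0.77 is wide.

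None of the 6 genes of ER-associated degradation passed by edgeR, 3 had an unadjusted p under 0.05 (23% of all tested genes had), and all 6 had a positive Log2FC (49.1% of all). *Syvn1*, the ubiquitin ligase HRD1, stood at 71.5, 66.2, 61.3, 33.3 and 38.2 CPM in GF mice and at 25.7 to 51.9 CPM in CONV-R mice (Log2FC 0.65, 95% interval 0.20 to 1.10, adjusted p = 0.0750). GF mice 1, 2 and 4 were above all CONV-R mice. With DESeq2 *Syvn1* passed, with an adjusted p of 0.0417, and was the only gene that DESeq2 added to the 6. *Herpud1*, which assembles the ligase complex, had a Log2FC of 0.51 (adjusted p = 0.100) and the mannosidase-like *Edem3* 0.43 (adjusted p = 0.140). *Edem2*, *Edem1* and the ligase adaptor *Sel1l* had 0.31, 0.23 and 0.21 with intervals that include 0.

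Per kilobase of exon, *Hsp90b1* (327 CPM per kilobase) and *Hspa5* (296) were the highest of the 37 genes in CONV-R mice, followed by *Canx* (124), *Pdia3* (99.4) and *Dnajc3* (92.6). *Qsox1*, with 2.16, ranked 36 of 37 in CONV-R mice, above *Trib3* only. In GF mice it rose to 8.56 and rank 29, next to *Qsox2* with 8.56. *Pdia5* ranked 24 in CONV-R and 22 in GF mice, and *Hspa5* had the first place in GF mice with 485. The levels of *Hsp90b1* and *Hspa5* overlapped between mice of a group, so that their order does not exceed the spread. The same held in CONV-R mice for *Qsox1*, *Trib3* and *Ero1lb* per kilobase.

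**Figure D4:**
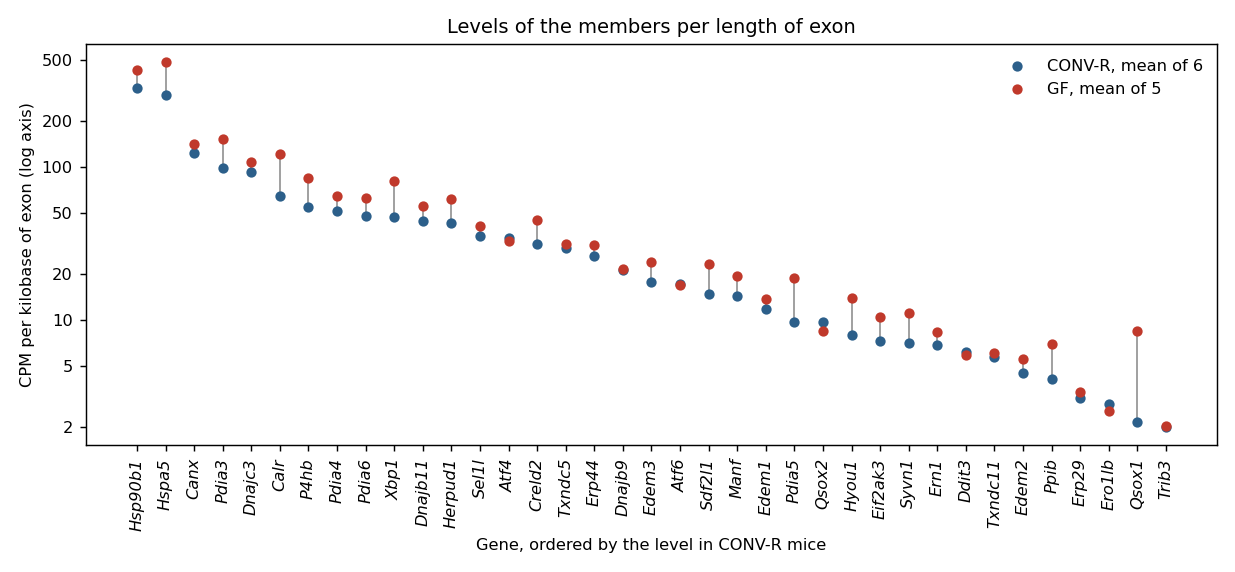
Mean CPM per kilobase of exon on a log axis (y) for the 37 genes (x, ordered by the level in CONV-R mice), with a line from the CONV-R to the GF mean of each gene. The longest line is that of Qsox1, from 2.16 to 8.56.

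Other genes of the pathway were taken as 5 written lists of ER and PERK response genes with 88 tested genes, of which 7 were higher (7.95%, beside 4.8% of all tested genes), 2 lower (2.27%, beside 2.67%) and 79 not passing. Leaving out 1 mouse gave 7 to 13 higher, the 13 without GF mouse 5. Of 15 other genes for thiol and disulfide exchange in the ER, such as *Ero1l* and *Prdx4*, none passed, 1 in each direction having an unadjusted p under 0.05 (23% of all tested genes had one). DESeq2 called 1 of these genes higher. Of 20 other degradation genes only *Aup1*, a lipid droplet and ligase recruiting protein, passed, and it was lower (Log2FC -0.51, adjusted p = 0.0383). Its call was lost in 7 of 11 fits that left out 1 mouse, those without CONV-R mice 1, 2, 4 and 6 and GF mice 2, 5 and 6. Of 27 genes of the translocon and the N-glycan folding cycle, the oligosaccharyltransferase subunits *Rpn2* (Log2FC 0.58) and *Stt3b* (0.66) were higher, and *Serp1*, a translocon-associated stress protein, was lower (Log2FC -0.62, adjusted p = 0.0148). *Serp1* stood at 55.1, 34.8, 68.0, 55.9 and 56.8 CPM in GF mice, all below the 74.4 to 92.9 CPM of CONV-R mice. Of 9 other ER membrane transcription factors and proteases 0 passed by edgeR or DESeq2, and 1 had an unadjusted p under 0.05 (23% of all tested genes had one).

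Of 17 tested response genes of PERK and ATF4, 5 were higher, beside 4.8% of all tested genes, 0 were lower and 12 did not pass. An unadjusted p under 0.05 was found for 8 (23% of all tested genes had one), and DESeq2 called 6, beside 1527 of 15540 genes. *Ddit4*, an inhibitor of mTORC1, was at 10.6, 2.90, 9.43, 2.91 and 9.90 CPM in GF mice against 0.205 to 1.69 CPM in CONV-R mice, where it rests on 48 counts in all (Log2FC 3.43, SE 0.51, adjusted p = 0.000586). On the deposited log2 values its Log2FC was 2.08. *Slc7a5*, the large neutral amino acid transporter, was at 96.5, 100, 118, 68.0 and 92.8 CPM in GF mice against 29.8 to 54.7 CPM, without overlap (Log2FC 1.08, adjusted p = 0.000490). Its partner chain *Slc3a2* (0.51), the leucine sensor *Sesn2* (1.09) and the tryptophanyl-tRNA synthetase *Wars* (0.78) were the others. Several of these genes also answer to other signals, *Ddit4* and *Sesn2* among them. The Log2FC of the 12 that did not pass ran from -0.0051 (*Chac1*) to 0.72 (*Atf3*).

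**Figure D5:**
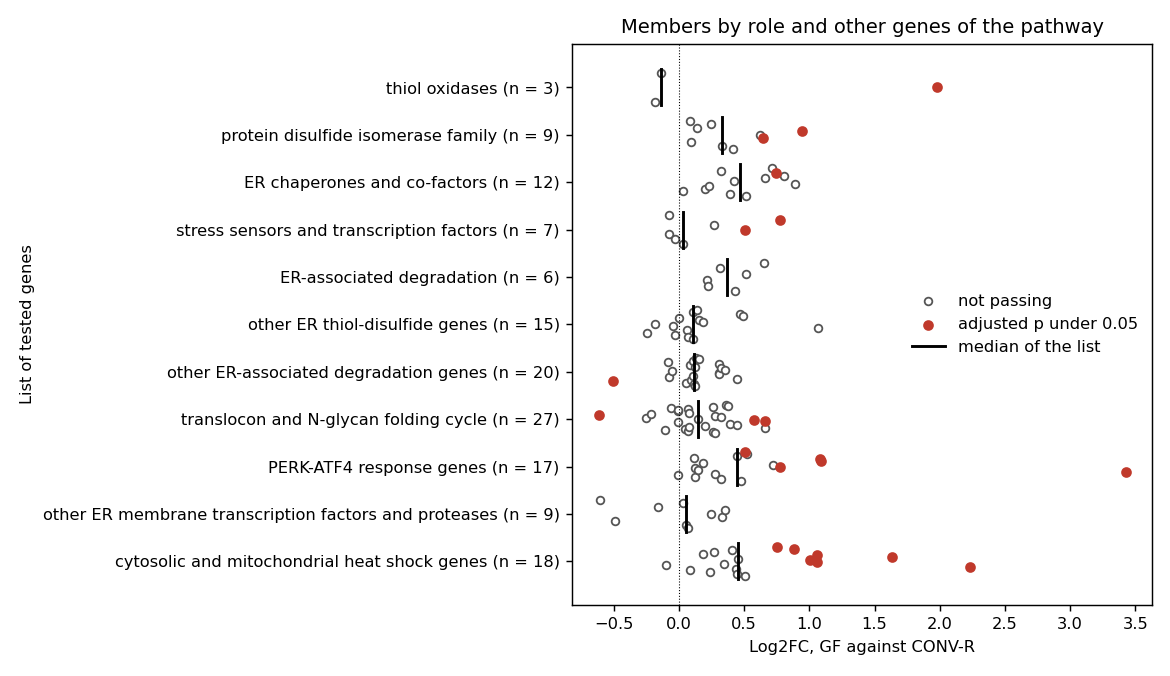
Log2FC of GF against CONV-R mice (x axis) for the tested genes of each role, of the 5 other lists and of a list of heat shock genes outside the ER (y axis; the vertical scatter within a list has no meaning), with a bar at the median of each list. Filled points passed the threshold. Ddit4 at 3.43 (2.08 on the deposited log2 values) is the point farthest to the right, and the 2 filled points left of 0 are Aup1 and Serp1.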

How the data were processed

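RNA of sorted liver ECs from 5 GF and 6 CONV-R mice was sequenced, with 1 library per mouse and reads of 50 bases. A further GF library had been dropped by the authors for its few mapped reads. Raw counts per gene, not normalized, were deposited by the authors after trimming, alignment by STAR (GRCm38) and counting by featureCounts. A second deposited table holds log2 values normalized by the DESeq method, and served as an alternative only. The annotation release and the strand setting of the counting are not given in the sources used here.

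Counts were analysed in R 4.3.3 with edgeR 4.0.16 (filterByExpr, TMM, quasi-likelihood test, no covariate, Benjamini-Hochberg over 12905 genes, threshold 0.05), a step tested on simulated data. The simulation gave every gene the same dispersion and used larger changes than those of the members other than *Qsox1*. It therefore does not cover the smaller changes reported here. DESeq2 1.42.0 (the authors' tool) and limma 3.58.1 were alternatives, beside DESeq2 size factors, no filter, at least 10 counts in every library, a replicate block and each mouse left out. Log2 ratios of *Qsox1* used log2 CPM with a prior count of 2 and a two-sided exact permutation test. Positions and exon lengths came from GENCODE on GRCm38 and promoters from RefSeq. The precision of a value is limited by 5 or 6 mice and, for weak genes, by counting error, which sets a floor for genes such as *Ddit4*. No pair of libraries within a group agreed within sampling noise.

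All 37 members were named. Of the other pathway lists, every gene past the threshold was named, at most 8 a list; of the cell type markers only defining ones. *Ero1l*, *Prdx4*, *Chac1*, *Atf3* and the 5 endothelial markers with an unadjusted p under 0.05 were named in addition, after their values were seen. The members and lists were chosen with earlier results of these data known. No list was given a test of its own. Proteins were not analysed here. Plots were drawn with matplotlib.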

Additional observations from a re-analysis of the deposited data

Results flagged for a closer look

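In 74 groups of values (37 genes, 2 groups of mice) the CPM of the highest and lowest mouse were compared with the others by Dixon's criterion, which chance meets in about 1 group in 20. 3 groups met it, all in CONV-R mice, in genes that did not pass the threshold between the groups. *Atf4* stood at 125 CPM in CONV-R mouse 3 against 67.0 to 78.8 CPM in the other 5, and *Erp44* at 118 CPM in the same mouse against 79.6 to 91.7 CPM. *Dnajb9* stood at 77.2 CPM in CONV-R mouse 2 against 44.8 to 56.0 CPM in the others.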

How the results depend on the processing

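*Qsox1*, *Pdia5*, *Eif2ak3* and *Xbp1* passed in all 18 alternatives, *P4hb* in 13 and *Ppib* in 11. The number of members higher in GF mice (6) was 10 without a filter on low counts and ranged from 4 to 10 when 1 mouse was left out. None was lower. Over all genes 965 passed in the main fit, 1134 without that filter and 622 to 1260 when 1 mouse was left out. The other lists, heat shock genes included (14 higher and 2 lower in all), had 11 to 22 genes higher and 1 to 2 lower when 1 mouse was left out. The median Log2FC of the members ranged from 0.28 to 0.46. In 7 members that never passed, *Ero1lb*, *Txndc11*, *Dnajb9*, *Atf6*, *Atf4*, *Ddit3* and *Trib3*, the sign changed in at least 1 alternative; the cause was not tested. The sources used here do not say whether same-numbered mice were handled together, and the main fit did not pair them. Correlations of their deviations ran from -0.014 to 0.20, and 2 of 5 libraries correlated best with their own number, which cannot decide it. With the replicate block on 10 libraries 9 members were higher, adding *Pdia6*, *Hyou1* and *Calr*, and 1101 of all genes passed, against 965 in the main fit. The *Qsox1* to *Qsox2* log2 ratio by pairs differed by 2.07 (exact sign-flip test over the replicate block, p = 0.0625, the smallest it can give). This p, too, was fixed by the separation of the groups. Over the alternatives in processing the difference ran from 1.76 to 2.16, and from 2.05 to 2.24 when 1 mouse was left out.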

Other observations

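Of 18 heat shock genes that act outside the ER, in the cytosol or mitochondria, 7 were higher in GF mice, 0 were lower and 11 did not pass, with a median Log2FC of 0.45; among all tested genes 4.8% were higher. *Hsp90aa1*, an inducible HSP90, stood at 63.4, 43.3, 75.9, 35.7 and 50.2 CPM in GF mice 1, 2, 4, 5 and 6 and at 21.1 to 32.7 CPM in CONV-R mice, without overlap (Log2FC 1.06, adjusted p = 0.00180, edgeR). *Hspa8*, the constitutive HSC70, was at 145, 155, 240, 115 and 146 CPM in GF mice and 51.2 to 107 CPM in CONV-R mice, also without overlap (Log2FC 1.06, adjusted p = 0.0028). *Hspb1*, a small heat shock protein, had a Log2FC of 2.23, or 1.33 on the deposited log2 values, from a low level of 0.482 to 2.56 CPM in CONV-R mice. *Hsph1*, an HSP110 exchange factor, rose by a Log2FC of 1.63, *Ahsa1*, the HSP90 activator, by 1.01, *Hsp90ab1* by 0.88 and *Hspa4l* by 0.75. When 1 mouse was left out, *Hspa4l* passed in 5 of 11 fits, *Hsp90ab1* in 8 and *Ahsa1* in 9, and the count fell to 4 without GF mouse 1 or GF mouse 4.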
